A study of Rattus norvegicus with 36 samples.

Results

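Described here are 41 genes of protein folding in the endoplasmic reticulum (ER) and of the integrated stress response, listed by gene name. The rule uses no measured value, but the members were chosen with earlier results of these data known. On the rat arrays, 40 of them had a probe set with a single gene symbol, among 14217 genes measured in all. Ern1, which encodes the stress sensor IRE1, had none and has no value. By role the measured genes were 9 lumenal chaperones and cochaperones, 2 lectin chaperones, 5 disulfide and proline isomerases, 4 genes of ER-associated degradation, 4 of the translocon, 5 stress sensors and transcription factors, 4 stress-induced regulators, 4 enzymes of amino acid synthesis and 3 amino acid transporters.

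All samples came from male Fischer 344 rats, 120 days old when the experiment began. In the post-injury (PI) groups the vocal fold (VF) mucosa had been stripped on both sides, and age-matched rats without surgery were the controls. Mucosa was dissected at 3, 14 and 60 days, at ages of 123, 134 and 180 days, and the tissue of 4 rats was pooled for each array, which gave 5 PI and 3 control arrays at 3 days, 5 and 3 at 14 days, and 5 PI with 2 control arrays at 60 days. For this last time the study's methods give 4 PI and 3 control arrays, and the labels were followed. Another 13 arrays hold primary VF fibroblasts at passage 1, each culture grown from explants of 1 rat. There were 3 naive cultures from uninjured rats and 4 scar cultures from rats at 60 days PI. Further scar cultures received 50 nM siRNA with liposomes for 1 h and were left in fresh medium for 24 h. Of these, 3 had siRNA against gp46 (Serpinh1) and 3 had scramble siRNA. The rats of all 13 cultures were 180 days old at harvest, and the cultures had 10% fetal bovine serum and 80% confluence. Levels are log2 signals, so a difference of 1 is a 2-fold difference. A gene was called at a limma adjusted p (Benjamini-Hochberg over all genes) under 0.05, and only called genes are said to have risen or fallen.

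The ER folds secreted and membrane proteins with chaperones and disulfide isomerases and sends chains that stay misfolded back to the cytosol for degradation. Overload is read by the sensors IRE1, ATF6 and PERK (Eif2ak3), which raise chaperone and degradation genes through XBP1 and cleaved ATF6. PERK and related kinases also phosphorylate the initiation factor eIF2, which slows most translation but favors that of ATF4, the factor that drives genes of amino acid supply and the stress regulators Ddit3, Trib3 and Chac1. Cells that secrete heavily, such as gland cells, plasma cells and collagen-making fibroblasts, depend on this machinery.

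The promoters of several members hold the DNA elements known to bind these factors, and the stretches below are shown because the results return to them. RefSeq windows (GRCr8) from 250 bases before to 50 after the gene start were given for 35 of the 40 measured members and were searched on both strands for 4 motifs. The ER stress element, CCAAT followed after any 9 bases by CCACG, was in 7 members (Calr, Canx, Creld2, Dnajc3, Hsp90b1, Hspa5 and Xbp1) and in 0.066% of all 33469 windows. The ER stress element II, ATTGG and CCACG with any 1 base between, was in 3 members (Dnajb11, Herpud1 and Hyou1) and in 0.051% of windows. The UPR element, TGACGTGG, was in Hyou1 alone, where it overlaps an ER stress element II, and in 0.595% of windows. The C/EBP-ATF element, TGATGNAA, which ATF4 binds with a C/EBP partner, was in 4 members (Chac1, Herpud1, Nupr1 and Trib3) and in 3.98% of windows. Each stretch is written along the strand of its gene with the fixed letters of the match in capitals, so that a match on the opposite strand shows the reverse complement. They lie at chr3:38452963-38453001 (+) for Hspa5, chr14:84604548-84604586 (+) for Xbp1, chr19:40213125-40213163 (+) for Calr, chr19:10614811-10614841 (-) and chr19:10614874-10614901 (-) for Herpud1, chr8:53602684-53602714 (+) for Hyou1, chr3:161275537-161275564 (-) for Trib3, chr3:126795954-126795981 (+) for Chac1 and chr1:190645939-190645966 (-) for Nupr1.
Hspa5, ER stress element: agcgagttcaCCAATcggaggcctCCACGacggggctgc
Xbp1, ER stress element: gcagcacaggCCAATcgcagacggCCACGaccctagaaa
Calr, ER stress element, opposite strand: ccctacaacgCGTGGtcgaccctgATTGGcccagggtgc
Herpud1, ER stress element II: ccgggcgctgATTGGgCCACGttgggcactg
Hyou1, ER stress element II, opposite strand: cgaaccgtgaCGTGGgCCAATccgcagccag
Herpud1, C/EBP-ATF element, opposite strand: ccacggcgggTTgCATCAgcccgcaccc
Trib3, C/EBP-ATF element, opposite strand: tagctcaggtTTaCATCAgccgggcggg
Chac1, C/EBP-ATF element, opposite strand: ttctccgccgTTgCATCActcctgctag
Nupr1, C/EBP-ATF element, opposite strand: aaaggccagaTTgCATCAgacagggctt
A match describes the letters only, not a bound site.

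Cell type markers were checked against the labels. The mean log2 signal of 10 markers of stratified epithelium lay between 12.44 and 13.13 in the mucosa arrays and between 5.51 and 5.96 in the cultures, and that of 10 fibroblast markers lay between 12.84 and 13.26 in the cultures and between 11.32 and 12.67 in the mucosa. In the mucosa, 3 arrays left their groups in the same direction over all genes (replicate 5 of 3-day PI, replicate 3 of 14-day control, replicate 4 of 60-day PI): after subtraction of the group means they correlated pairwise at Pearson's r = 0.60, 0.45 and 0.61 across genes, which are not independent replicates. Each count was therefore also computed after removal of these 3 arrays, which were picked after the values were seen. The SD of their deviations across genes was 0.340, 0.179 and 0.448 in the order named. Mucosa arrays not among them, such as 14-day PI replicate 4 at 0.230, exceeded the second of these.

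At 3 days PI, 4 of the 5 measured sensors and transcription factors of the stress response were lower than in control mucosa. The transcription factors Xbp1, Atf4 and Ddit3 and the sensor Eif2ak3 fell, as did Herpud1, a membrane protein of ER-associated degradation, and both chains of the cystine carrier, Slc7a11 and Slc3a2. Shmt2, the mitochondrial serine hydroxymethyltransferase, Ssr1, a translocon-associated protein, and Edem1, a lectin that directs misfolded glycoproteins to degradation, rose. In all, 3 of 40 members were higher and 10 were lower (limma adjusted p under 0.05), against 14.6% higher and 12% lower among all genes tested (26.6% called). The median log2 fold change was -0.13, against 0.01 over all genes. The groups did not overlap for 6 higher and 8 lower members, against 17.7% and 13.5% of all genes. In tissue, fewer cells of a type and less RNA per cell cannot be told apart.

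**Figure D1:**
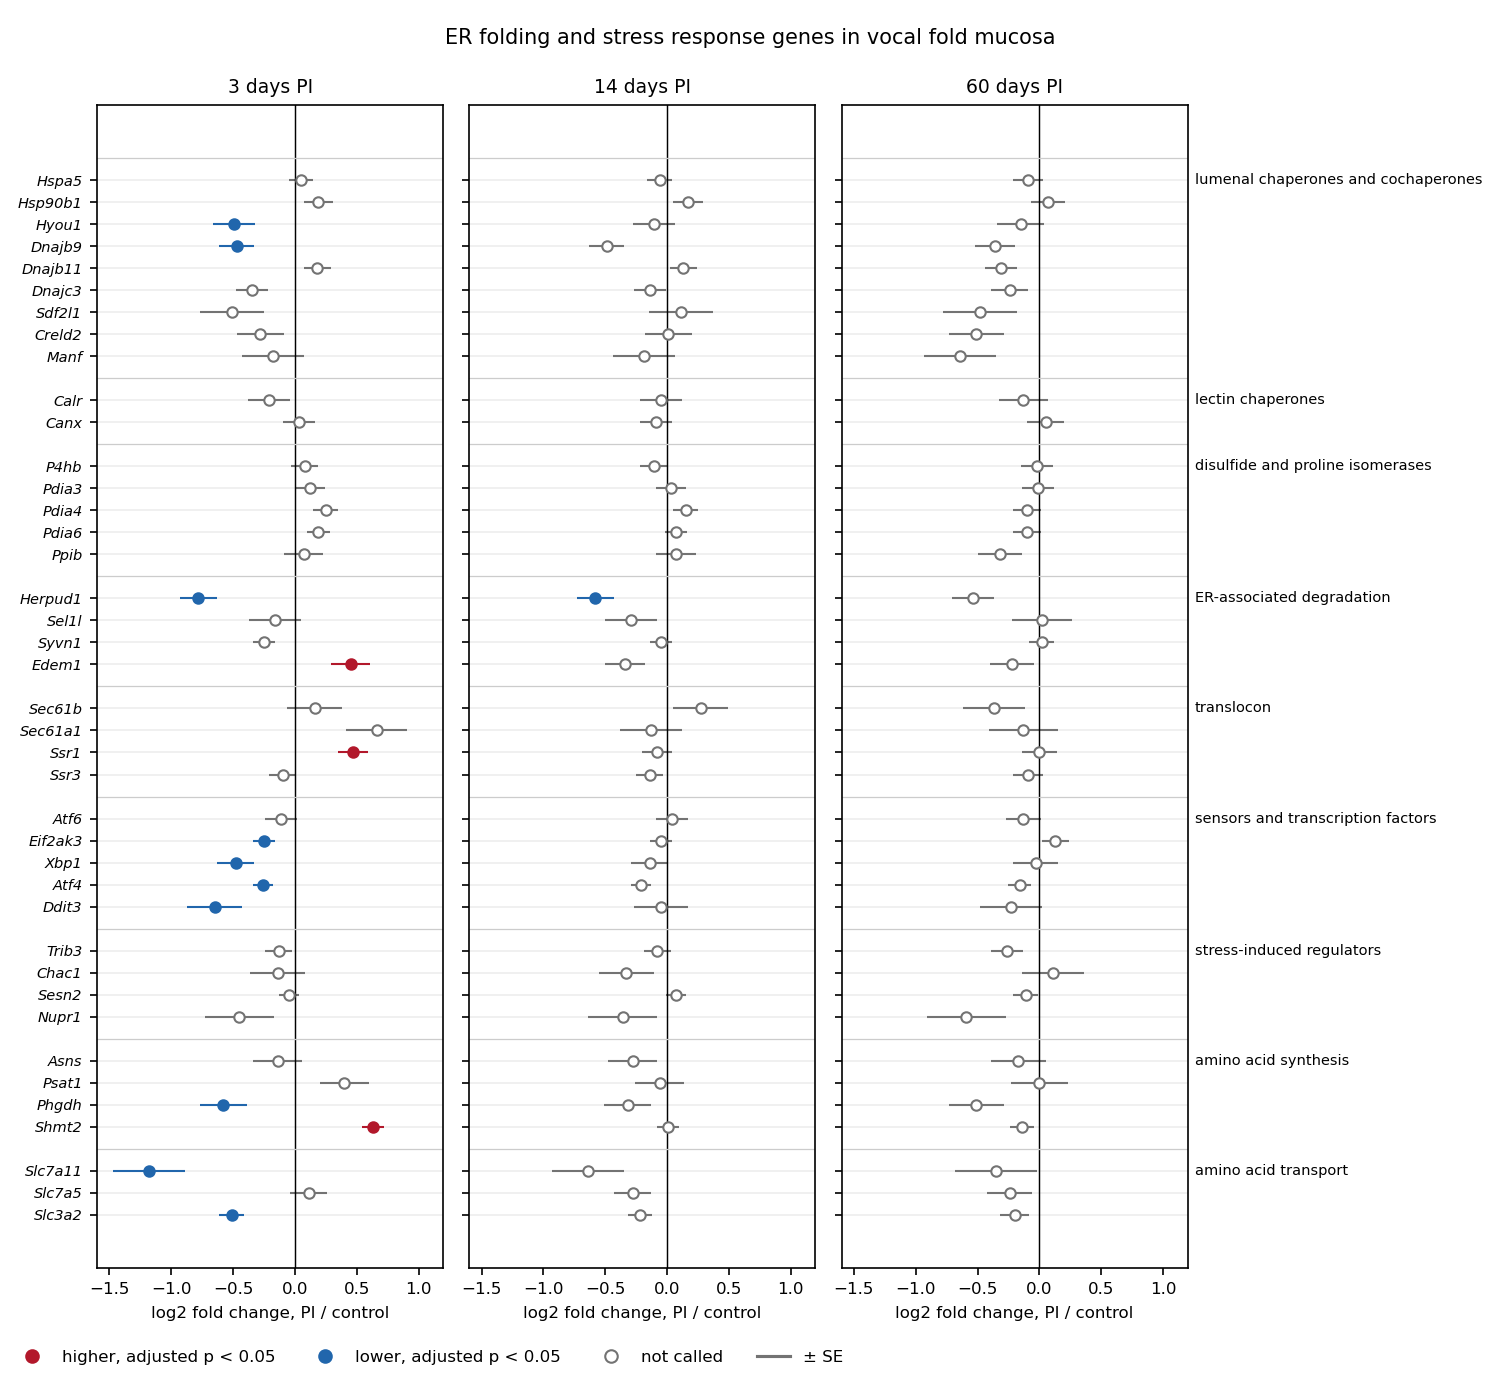
Log2 fold change ± standard error (SE) of the 40 measured genes in PI against control mucosa at 3, 14 and 60 days, grouped by role (right). Filled red and blue points mark genes that were called higher and lower at a limma adjusted p under 0.05, of which there were 13 at 3 days, 1 at 14 days and 0 at 60 days.

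Herpud1 was at 12.09, 11.34 and 11.48 log2 in the 3 control arrays and at 10.81, 10.77, 10.75, 10.89 and 11.06 in the 5 PI arrays at 3 days. Every PI array lay below every control array, and the gene fell by 0.78 log2 (SE 0.15, limma adjusted p = 0.000402). Slc3a2, the heavy chain shared by several amino acid transporters, was at 12.13, 12.04 and 12.14 in control and at 11.63, 11.42, 11.49, 11.65 and 11.78 in PI mucosa. Its groups did not overlap either, and it fell by 0.51 log2 (SE 0.10, adjusted p = 0.000853). Slc7a11, the light chain that exchanges cystine for glutamate, fell by 1.18 log2 (SE 0.29, adjusted p = 0.00395). Its control arrays were unlike each other, at 7.65, 9.40 and 9.19, and control replicate 1 lay inside the narrow range of the PI arrays, 7.45 to 7.66. Without that array the log2 fold change was -1.73, and pooling the controls of all ages gave -0.77.

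Among the sensors and factors, Ddit3, which encodes the stress factor CHOP, was at 8.81, 8.70 and 8.78 in control and at 8.41, 8.29, 8.27, 8.38 and 7.23 in PI mucosa at 3 days. It fell by 0.65 log2 (SE 0.22, limma adjusted p = 0.0343) with no overlap, and PI replicate 5 stood far below the other arrays. Without that array the log2 fold change was -0.43 (adjusted p = 0.0588, within a range of 3.3e-05 to 0.105 over the alternatives). Atf4 was at 12.72, 12.51 and 12.55 in control and at 12.46, 12.38, 12.26, 12.34 and 12.27 in PI mucosa. This difference was small, a fall of 0.26 log2 (SE 0.08, adjusted p = 0.0259), although no arrays overlapped. Xbp1 fell by 0.48 log2 (SE 0.15, adjusted p = 0.0248) and Eif2ak3 by 0.25 log2 (SE 0.09, adjusted p = 0.0491), each with overlapping groups. For Xbp1 the PI arrays were at 12.72, 12.34, 12.47, 12.53 and 13.07 and the control arrays at 13.21, 12.91 and 13.20, so that PI replicate 5 alone reached the control range. Atf6, a sensor whose cleaved form is a transcription factor, had a log2 fold change of -0.11 (adjusted p = 0.586). Of the genes known to respond to ATF4, Ddit3, Slc3a2, Slc7a11 and Phgdh fell and Shmt2 rose, while Trib3 (-0.13), Chac1 (-0.14), Sesn2 (-0.05), Nupr1 (-0.45), Asns (-0.14), Psat1 (0.40) and Slc7a5 (0.11) were not called.

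The main chaperones were not called at 3 days PI. Hspa5, which encodes BiP, the Hsp70 of the ER lumen, was at 12.95 log2 in all 3 control arrays and between 12.88 and 13.23 in PI arrays, a log2 fold change of 0.05 (SE 0.10, limma adjusted p = 0.756). Hsp90b1, the Hsp90 of the ER, had 0.19 (adjusted p = 0.277). Hyou1, the nucleotide exchange partner of BiP, and Dnajb9, a J-domain cochaperone, were the lumenal genes that fell, by 0.49 and 0.47 log2 (adjusted p = 0.0332 and 0.0161). The other probe set of Hyou1, with a lower mean signal, gave -0.26. The lectin chaperones Calr and Canx had -0.21 and 0.03, and the 5 isomerases lay between 0.07 and 0.25, with Pdia4 and Pdia6 higher in every PI array than in every control array but at adjusted p = 0.0621 and 0.146.

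Shmt2 was at 9.18, 9.19 and 9.07 in control and at 9.90, 9.65, 9.78, 9.98 and 9.57 in PI mucosa at 3 days. It rose by 0.63 log2 (SE 0.09, limma adjusted p = 1.95e-05), and no arrays overlapped. Phgdh, which opens serine synthesis from glycolysis, was the other called enzyme and fell by 0.58 log2 (SE 0.19, adjusted p = 0.0292), while Psat1, the next enzyme of that route, had 0.40 (adjusted p = 0.153). Ssr1 was at 11.83, 11.82 and 11.91 in control and at 12.27, 12.16, 12.22, 12.38 and 12.59 in PI mucosa, and rose by 0.47 log2 (SE 0.12, adjusted p = 0.00755), with 0.67 at its other probe set. Edem1 rose by 0.45 log2 (SE 0.16, adjusted p = 0.0409) with no overlap, but its other probe sets, one of lower and one of higher mean signal, gave 0.30 and 0.14. Sec61a1, the channel of the translocon, had 0.66 (adjusted p = 0.0535) and 0.10 and 0.23 at its other probe sets.

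Herpud1, Slc7a11, Slc3a2, Ssr1 and Shmt2 kept their calls at 3 days PI in all alternatives that were run. The count of 13 was 5 without control replicate 1, which ended the calls of Atf4, Ddit3, Dnajb9, Edem1, Eif2ak3, Hyou1, Phgdh and Xbp1 (limma adjusted p from 0.0502 to 0.258), and 7 without control replicate 3, which ended those of Atf4, Ddit3, Edem1, Eif2ak3, Phgdh and Xbp1 (0.0513 to 0.152). Ddit3 and Hyou1 lost their calls without control replicate 2 (0.0622 to 0.201), Atf4, Edem1, Eif2ak3, Hyou1, Phgdh and Xbp1 without PI replicate 3 (0.0527 to 0.0809), Eif2ak3, Hyou1, Phgdh and Xbp1 without PI replicate 2 (0.0558 to 0.0928), Edem1, Eif2ak3, Hyou1 and Xbp1 without PI replicate 4 (0.0517 to 0.106), Ddit3, Edem1 and Hyou1 without PI replicate 5 (0.0559 to 0.0787) and Eif2ak3 without PI replicate 1 (0.0624). Over the alternatives the adjusted p of these 8 genes reached as high as 0.474, for Edem1. Shares of all genes called in these fits are not given, so the lower counts are not shown to be particular to the members.

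**Figure D2:**
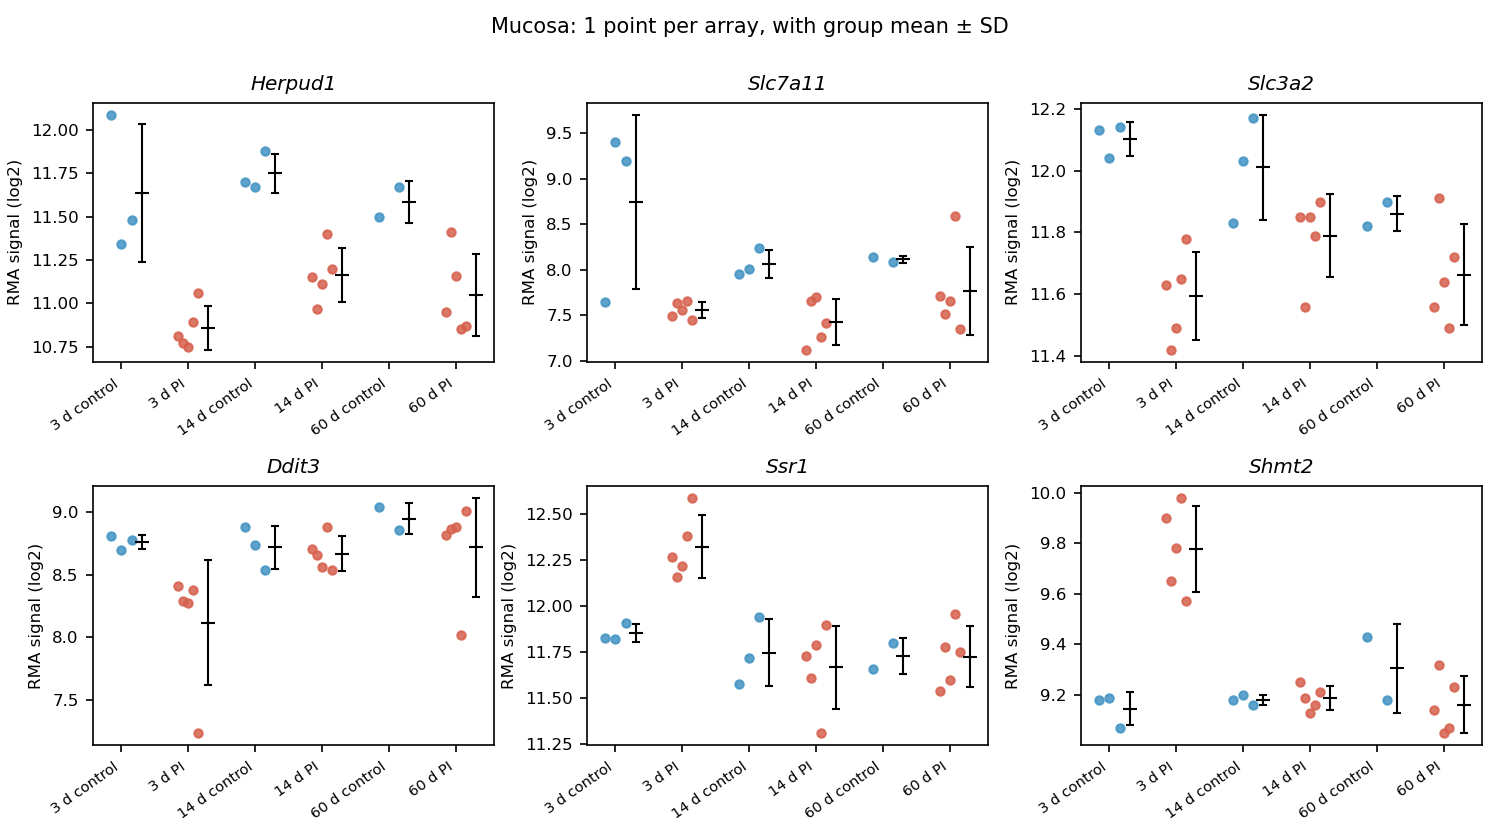
Log2 signal of Herpud1, Slc7a11, Slc3a2, Ddit3, Ssr1 and Shmt2 in each mucosa array (blue, control; red, PI) at 3, 14 and 60 days, with the group mean and SD in black. At 3 days the PI arrays lie apart from the control arrays for all these genes except Slc7a11, where control replicate 1 is at 7.65.

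The rest of the pathway was read from 98 measured genes of a list that holds none of the 40 members. At 3 days PI, 21 of the 98 were higher and 12 lower, against 14.6% higher and 12% lower among all genes. The median log2 fold change of the 98 was 0.02. Of the 12 collagen folding genes, 9 were higher and 0 lower, with a median of 0.86. Among them Plod2, a collagen lysyl hydroxylase, rose by 3.02 log2, P4ha3, a prolyl hydroxylase subunit, by 1.74, Fkbp10, a prolyl isomerase of collagen, by 1.59, and Serpinh1, the collagen chaperone also called gp46, by 1.40 (SE 0.15, limma adjusted p = 5.01e-07). Other factors of the stress response gave 2 higher and 3 lower of 16, with Atf5 and Atf3, both activating transcription factors, down by 0.99 and 0.57 log2. Other folding and disulfide genes gave 2 higher and 2 lower of 15, Fkbp14, another collagen isomerase, up by 1.17 and Ero1b, an oxidase that renews disulfide isomerases, down by 1.31. Of 14 other ATF4 targets and amino acid enzymes, 4 rose and 3 fell, of 12 aminoacyl-tRNA synthetases 3 rose and 0 fell, of 10 other degradation genes 1 rose and 0 fell, and of 19 genes of the translocon, signal peptidase and oligosaccharyltransferase 0 rose and 4 fell, led by Sec11c, a signal peptidase subunit, at -0.97.

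**Figure D3:**
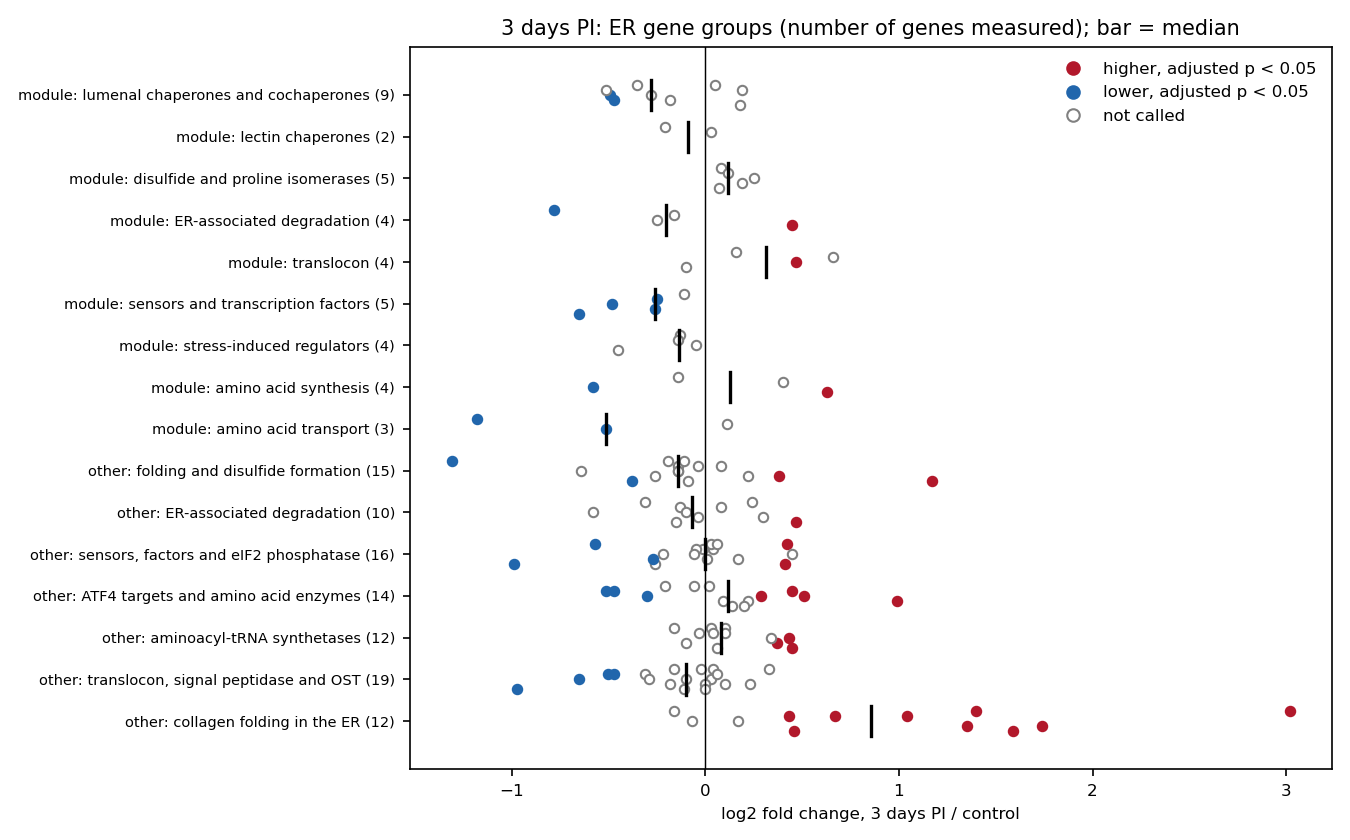
Log2 fold change at 3 days PI against control for the module by role (module) and for the lists of other ER genes (other), with the number of genes measured in brackets. Each point is a gene, filled when called at a limma adjusted p under 0.05, and the black bar is the median, which is 0.86 for collagen folding and between -0.51 and 0.32 for the roles of the module.

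Cell type markers moved at the same time. At 3 days PI, 8 of 8 cell division markers rose, with the mean log2 signal of the list at 9.60 to 9.84 in PI and 7.48 to 8.16 in control arrays, as did 6 of 10 fibroblast markers (12.56 to 12.67 against 11.74 to 11.93, with Col1a1 at a log2 fold change of 2.30) and 4 of 5 neutrophil markers (6.36 to 8.26 against 5.45 to 6.18). Skeletal muscle markers fell in 5 of 8 cases (10.97 to 11.96 against 11.28 to 12.20). Plasma cell markers, 0 of 7 of which were called, lay between 7.24 and 7.59 in PI and between 7.56 and 7.79 in control arrays, and gland markers, 1 of 9 higher and 2 lower, between 12.43 and 12.88 and between 12.46 and 12.60. Endothelium markers were at 9.36 to 9.58 in PI and 9.05 to 9.24 in control arrays, without overlap. Those of macrophages (10.49 to 11.16 against 10.46 to 11.52) and stratified epithelium (12.44 to 12.71 against 12.5 to 12.89) overlapped. Among all genes 14.6% were called higher and 12% lower. The part of these shifts in the values of the folding and stress genes was not tested.

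At 14 days PI, Herpud1 was the only member called, of 40, against 3.03% of all genes tested (2.08% higher and 0.95% lower). It was at 11.70, 11.67 and 11.88 in control and at 11.15, 10.97, 11.11, 11.40 and 11.20 in PI mucosa, and fell by 0.58 log2 (SE 0.15, limma adjusted p = 0.0299) with no overlap. Dnajb9 (-0.49, adjusted p = 0.06), Atf4 (-0.21, 0.214), Slc7a11 (-0.64, 0.339) and Nupr1 (-0.36) also lay below control in every PI array but were not called. With Herpud1 that made 5 lower and 0 higher members without overlap, against 6.12% and 7.94% of all genes. The median log2 fold change of the members was -0.09, against 0.00 over all genes, and Xbp1 (-0.14), Ddit3 (-0.05), Eif2ak3 (-0.05), Atf6 (0.04), Hspa5 (-0.06), Hsp90b1 (0.17), Asns (-0.28) and Trib3 (-0.08) were not called. Of the 98 other pathway genes, Plod2 (0.78), Serpinh1 (0.60) and Fkbp10 (0.36), all of collagen folding, rose and 0 fell. Cell type markers moved too: the mean log2 signal of the list was 12.00 to 12.27 in PI and 11.75 to 11.87 in control arrays for fibroblasts (4 of 10 called, all higher), 7.71 to 8.12 and 7.20 to 7.57 for plasma cells (1 of 7 higher) and 9.38 to 9.63 and 9.13 to 9.22 for endothelium (1 of 5 higher), each without overlap, and their part in the values of the members was not tested. Herpud1 lost its call without PI replicates 1, 2, 3 and 5 (adjusted p = 0.0606, 0.0722, 0.056 and 0.0607), without control replicates 1, 2 and 3 (0.09, 0.0787 and 0.18) and after removal of the 3 deviating arrays, and over the alternatives its adjusted p ranged from 0.000732 to 0.18.

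At 60 days PI, 0 of 40 members were called by limma, against 0.0563% of all genes (0.0211% higher and 0.0352% lower), and the smallest adjusted p was 0.283. At an unadjusted p under 0.05 there were 1278 of the 14217 genes and 6 of the 40 members, these 6 with lower values in PI mucosa. The lognormal-normal model called 13 genes higher and 44 lower among all genes, and 0 members. Herpud1 had the smallest p. It was at 11.50 and 11.67 in control and at 10.95, 11.41, 11.16, 10.85 and 10.87 in PI mucosa, a log2 fold change of -0.54 (SE 0.17). Creld2, an ER protein with disulfide isomerase activity, had -0.51 and Dnajb11, a J-domain partner of BiP, had -0.31 (adjusted p = 0.477 for each). Groups did not overlap for 6 lower members (Herpud1, Creld2, Dnajb11, Dnajb9, Trib3 and Ppib) and 0 higher members, against 7.96% and 4.4% of all genes. The median of the members was -0.15, against -0.03 over all genes. Among the marker lists the mean log2 signal was lower in every PI array for glands (12.43 to 12.63 against 12.78 to 12.83, 1 of 9 genes called lower) and macrophages (9.18 to 10.33 against 10.60 to 11.04, 0 of 8 called by limma) and higher in every one for skeletal muscle (12.48 to 13.19 against 12.02 to 12.18, 0 of 8) and endothelium (9.24 to 9.73 against 9.15 to 9.19, 0 of 5). Their part in the values of the members was not tested, and the number of control arrays, 2, limits the precision. The groups follow the labels, whose numbers of arrays at this time differ from the study's methods, and this was not resolved.

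The effects of injury at different times were compared directly, in comparisons that share the arrays of a time point. Between 3 and 14 days PI they differed for 2 members (limma), against 8.01% of all genes (5.47% higher and 2.54% lower at 3 days). The effect on Shmt2 was higher at 3 days by 0.62 log2 (SE 0.13, adjusted p = 0.00335) and that on Edem1 by 0.79 log2 (SE 0.23, adjusted p = 0.0348). The other probe sets of Edem1 gave 0.56 and 0.50 (limma adjusted p over all probe sets = 0.063 and 0.133), and that of Ssr1 gave 0.71 (0.0409). Between 3 and 60 days PI the effects differed, at the probe sets used, for Shmt2 alone, by 0.78 log2 (SE 0.14, adjusted p = 0.000585), against 13.5% of all genes (8.7% higher and 4.78% lower). Probe sets not used gave 0.83 for Ssr1 (limma adjusted p over all probe sets = 0.0179) and 0.76 and 0.41 for Edem1 (0.0117 and 0.211). Between 14 and 60 days PI the effects differed for 0 members, against 0.0774% of all genes, with 1015 genes and 1 member at an unadjusted p under 0.05. The smallest p values there were those of Dnajb11, Sec61b, a translocon subunit, and Creld2, whose effects were higher at 14 days by 0.44, 0.64 and 0.53 log2 (adjusted p of at least 0.581). For Herpud1 the fold changes at 3, 14 and 60 days were -0.78, -0.58 and -0.54, and no difference between them was called, which does not show that they were equal. The call of Edem1 was lost without 14-day PI replicates 1 and 4 (adjusted p = 0.0514 and 0.0571), 14-day control replicates 1 and 3 (0.0679 and 0.11), 3-day PI replicates 3 and 4 (0.054 and 0.0591) or 3-day control replicates 1 and 3 (0.114 and 0.0858), within a range of 0.000388 to 0.125 over the alternatives. The count between 3 and 60 days was 3 without 3-day PI replicate 5 or 3-day control replicate 2, 2 without 3-day control replicate 1 or 60-day PI replicate 2, 4 without 60-day PI replicate 4, and 11 after removal of the 3 deviating arrays. Shares of all genes called in these fits are not given, so the changed counts are not shown to be particular to the members.

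The cultured fibroblasts were compared next, again with arrays shared between comparisons. In scar against naive cultures Asns and both chains of a neutral amino acid carrier were higher, Ddit3 was lower, and 0 of the 9 lumenal chaperones were called (limma, with 0 of the 9 at an unadjusted p under 0.05). Ddit3 was at 11.13, 11.19 and 11.39 in naive and at 10.20, 10.27, 10.07 and 10.39 in scar cultures, without overlap, and fell by 1.00 log2 (SE 0.12, limma adjusted p = 0.00252). Asns, which makes asparagine, was at 11.42, 11.33 and 11.49 in naive and at 11.81, 11.89, 11.70 and 11.64 in scar cultures and rose by 0.35 log2 (SE 0.07, adjusted p = 0.0179). Slc7a5, the light chain of a carrier of large neutral amino acids, and its heavy chain Slc3a2 rose by 0.58 and 0.31 log2 (adjusted p = 0.0439 and 0.0423). All of these groups stood apart, as did 4 higher and 5 lower members in all, against 9.96% and 8.53% of all genes. The calls were 3 members higher and 1 lower of 40, against 2.63% and 2.84% of all genes (5.47% called).

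The members had a median log2 fold change of 0.02 between scar and naive cultures, against 0.02 over all genes, and the 9 lumenal chaperones lay between -0.16 and 0.12, with Hspa5 at -0.08 and Hsp90b1 at 0.09. Of the sensors and factors, Atf4 (-0.12) and Eif2ak3 (-0.25) lay lower in every scar culture but were not called (limma adjusted p = 0.402 and 0.107), nor were Xbp1 (0.14) and Atf6 (-0.05). Trib3 had 0.30 (adjusted p = 0.546). Serpinh1 was at 13.12, 13.09 and 13.20 in naive and at 13.38, 13.56, 13.42 and 13.16 in scar cultures, which overlap (0.24, adjusted p = 0.159). Of the 98 other pathway genes 3 rose (Cth, a cysteine-making enzyme, by 0.61, Ssr2, a translocon-associated protein, by 0.33 and Yars1, the tyrosyl-tRNA synthetase, by 0.31) and Sec11c fell by 0.49 log2. Cell division markers rose in 8 of 8 cases, with the mean of the list at 7.14 to 8.62 in scar and 6.20 to 6.49 in naive cultures, and skeletal muscle markers, of which 0 of 8 were called, were at 6.45 to 8.77 and 6.03 to 7.40. Their part in these values was not tested.

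The call of Ddit3 between scar and naive cultures held without any single culture and was lost only with a replicate block (limma adjusted p = 0.068, range 0.00105 to 0.068), where 0 members were called. The rises were less stable. Without naive replicates 1 or 2, Asns, Slc3a2 and Slc7a5 all lost their calls (adjusted p from 0.0638 to 0.123 and from 0.0869 to 0.174), which left 1 member. Slc3a2 and Slc7a5 lost theirs without naive replicate 3 (0.0727 to 0.144), scar replicate 1 (0.0682 to 0.0738) or scar replicate 3 (0.0902 to 0.11), each of which left 2 members, Slc3a2 without scar replicate 2 (0.0958) and Slc7a5 without scar replicate 4 (0.0638). The share of all genes called in each of these fits is not given, so the lower counts are not shown to be particular to the members.

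Scar cultures that received scramble siRNA had lower levels of many stress response genes than untreated scar cultures. All 4 stress-induced regulators fell, together with Atf4, its targets Asns, Slc7a5 and Slc3a2, and the chaperones Hspa5, Hyou1 and Calr. In all, 18 of 40 members were lower and 0 higher (limma), against 13.6% lower and 16.5% higher among all genes tested (30% called). The median log2 fold change was -0.26, against -0.01 over all genes. Groups stood apart for 23 lower and 0 higher members, against 15.7% and 18.7%. With the replicate number as a block, although same-numbered cultures did not deviate together here, 8 members were called, Atf4, Calr, Chac1, Sesn2, Trib3, Asns, Slc3a2 and Slc7a5, and the other 10 were not, with limma adjusted p from 0.0537 (Nupr1) to 0.299 (Pdia6). With all 36 arrays in 1 fit, Asns, Dnajb9, Pdia6 and Ppib lost their calls (adjusted p from 0.0603 to 0.174). For these 2 fits the shares of all genes called are not given, so the losses are not shown to be particular to the members. The 2 sets of cultures differ in siRNA, liposomes, time in fresh medium and whatever else was handled apart, and these cannot be told apart.

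Nupr1, a small nuclear protein induced by stress, was at 12.66, 11.92, 11.79 and 12.61 log2 in untreated and at 10.28, 10.82 and 10.80 in scramble cultures. It fell by 1.61 log2, to levels 3.05-fold lower (SE 0.27, limma adjusted p = 0.000965). Chac1, which breaks down glutathione, was at 12.09, 12.32, 12.17 and 12.14 in untreated and at 10.76, 10.96 and 10.59 in scramble cultures. The replicates were close to each other in both groups, and Chac1 fell by 1.41 log2 (SE 0.12, adjusted p = 1.16e-05). Trib3, a pseudokinase that restrains the stress response, fell by 1.17 log2 (adjusted p = 0.00432) from 11.36, 11.44, 10.86 and 10.67 to 9.41, 10.24 and 10.11, and by 1.84 and 1.10 at its other probe sets. Sesn2, a regulator of mTORC1, fell by 1.11 log2 (adjusted p = 0.000583), while its other probe set, with a mean log2 signal of 5.02, gave 0.04.

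Slc7a5 was at 11.17, 10.80, 11.39 and 11.31 in untreated and at 9.87, 10.23 and 9.92 in scramble cultures, and fell by 1.16 log2 (SE 0.15, limma adjusted p = 0.000151). Slc3a2 fell by 0.67 and Asns by 0.44 log2 (adjusted p = 7.36e-05 and 0.000818), while Slc7a11 (0.06), Psat1 (0.35) and Phgdh (0.17) were not called. Atf4 was at 13.42, 13.43, 13.33 and 13.48 in untreated and at 12.72, 12.92 and 12.88 in scramble cultures, a clear gap, and fell by 0.57 log2 (SE 0.08, adjusted p = 0.000265). Ddit3 had -0.22 (adjusted p = 0.213) and Atf6 -0.34 (0.0627), while Xbp1 and Eif2ak3 fell by 0.43 and 0.29 log2 (0.00713 and 0.0198).

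Hspa5 was at 13.33, 13.32, 13.18 and 13.25 in untreated and at 12.85, 12.91 and 12.85 in scramble cultures. It fell by 0.40 log2 (SE 0.06, limma adjusted p = 0.000467), and the calcium-binding lectin Calr fell by 0.48 log2 (adjusted p = 0.000116), both without overlap. Hyou1, with -0.23 at its other probe set, fell by 0.59 and Dnajb9 by 0.29 log2, and of the isomerases Pdia4 (-0.41), Ppib (-0.27) and Pdia6 (-0.19) fell. The translocon and degradation genes held 0 called members of 4 each, with Hsp90b1 (-0.10, adjusted p = 0.271), Dnajc3 (0.21), Creld2 (0.19) and Canx (-0.13) among the other genes not called. Pdia3 had 0.25 and at its other probe set -0.46. Pdia6 lost its call without scar replicates 2, 3 or 4 (adjusted p = 0.0763, 0.0741 and 0.0754) or scramble replicates 1, 2 or 3 (0.0673, 0.0567 and 0.126), within a range of 0.0128 to 0.299 over the alternatives. Dnajb9 lost its call without scar replicates 2 or 4 (0.0632 and 0.0536) or scramble replicates 2 or 3 (0.0647 and 0.105), and Eif2ak3 without scramble replicate 3 (0.0893).

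**Figure D4:**
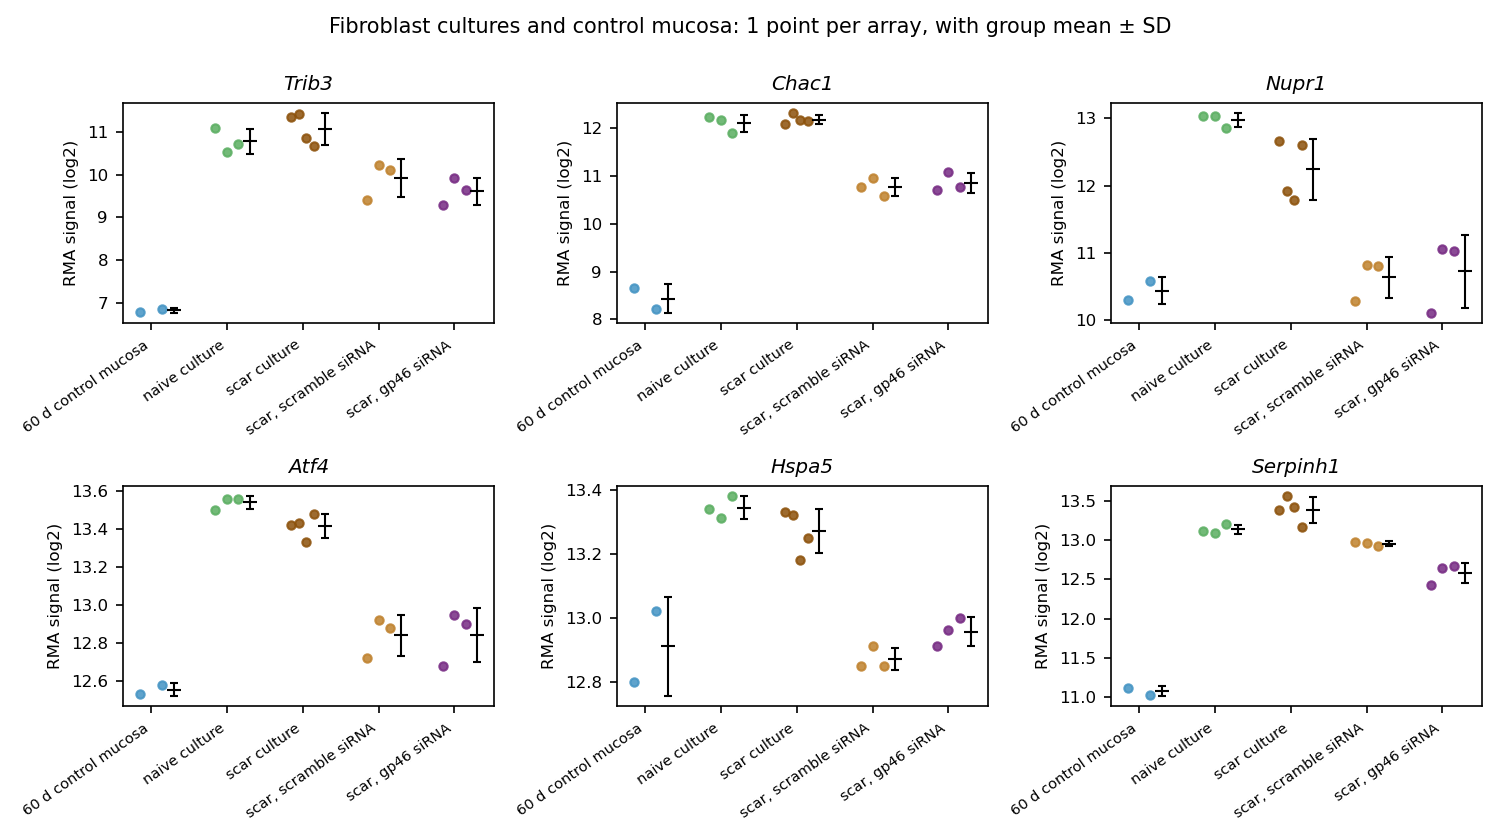
Log2 signal of Trib3, Chac1, Nupr1, Atf4, Hspa5 and Serpinh1 in the arrays of 60-day control mucosa and of naive, untreated scar, scramble siRNA and gp46 siRNA cultures, 1 point per array, with the group mean and SD in black. The scramble and gp46 siRNA cultures lie below the untreated scar cultures for all 6 genes.

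The 98 other pathway genes showed 29 lower and 8 higher in scramble cultures, against 13.6% and 16.5% of all genes, with a median of -0.12. The lower genes included 9 of 14 other ATF4 targets and amino acid enzymes (median -0.48), led by Ddit4, an mTORC1 inhibitor, at -2.07, and Gdf15, a stress-induced cytokine, at -1.19. They also included 5 of 16 sensors and factors, with Atf3 at -3.48, Atf5 at -1.10 and Ppp1r15a, the subunit that directs eIF2 dephosphorylation, at -1.05, and 5 of 12 collagen folding genes. Cell division markers rose in 8 of 8 cases, with a mean of 10.61 to 10.84 in scramble and 7.14 to 8.62 in untreated scar cultures, 5 of 10 fibroblast markers fell (12.86 to 12.98 against 12.99 to 13.26), and 2 of 8 skeletal muscle markers, Acta1 (-4.02) and Myh2 (-2.66), fell (5.48 to 6.10 against 6.45 to 8.77). Their part in the stress response values was not tested.

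The siRNA against gp46 was compared with scramble siRNA. Its target Serpinh1 was at 12.98, 12.96 and 12.92 log2 in scramble and at 12.43, 12.64 and 12.67 in gp46 siRNA cultures. Every gp46 culture lay below every scramble culture, with a log2 fold change of -0.38 (SE 0.10, unadjusted p = 0.00255 in the limma fit) that was not called (adjusted p = 1.0). Of the 40 members 0 were called, as of all genes (0%), against 299 genes and 1 member at an unadjusted p under 0.05, and the lognormal-normal model called 7 genes and 0 members. The member was Dnajb11, at 0.19 (SE 0.07, unadjusted p = 0.0211), which with Sel1l (0.12) was higher in every gp46 culture, and Phgdh (-0.13) was lower in every one. These made 2 higher and 1 lower without overlap, against 2.95% and 3.4% of all genes.

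The median of the members between gp46 and scramble siRNA was 0.01, against 0.00 over all genes, and the log2 fold changes ran from -0.30 (Trib3) to 0.19. Hspa5 had 0.09 (SE 0.06), Hsp90b1 0.05 (0.07), Atf4 -0.00 (0.08), Ddit3 -0.02 (0.13), Xbp1 0.11 (0.11), Eif2ak3 0.16 (0.09), Canx 0.13 (0.09), Atf6 -0.05 (0.14) and Asns 0.06 (0.08). A difference that was not called is not shown to be absent, and the number of arrays, 3 a group, limits the precision. The target Serpinh1 itself lay lower by a small amount that was not called, so these values describe a weak reduction of its RNA. Its level is given for the probe set used, of 2.

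**Figure D5:**
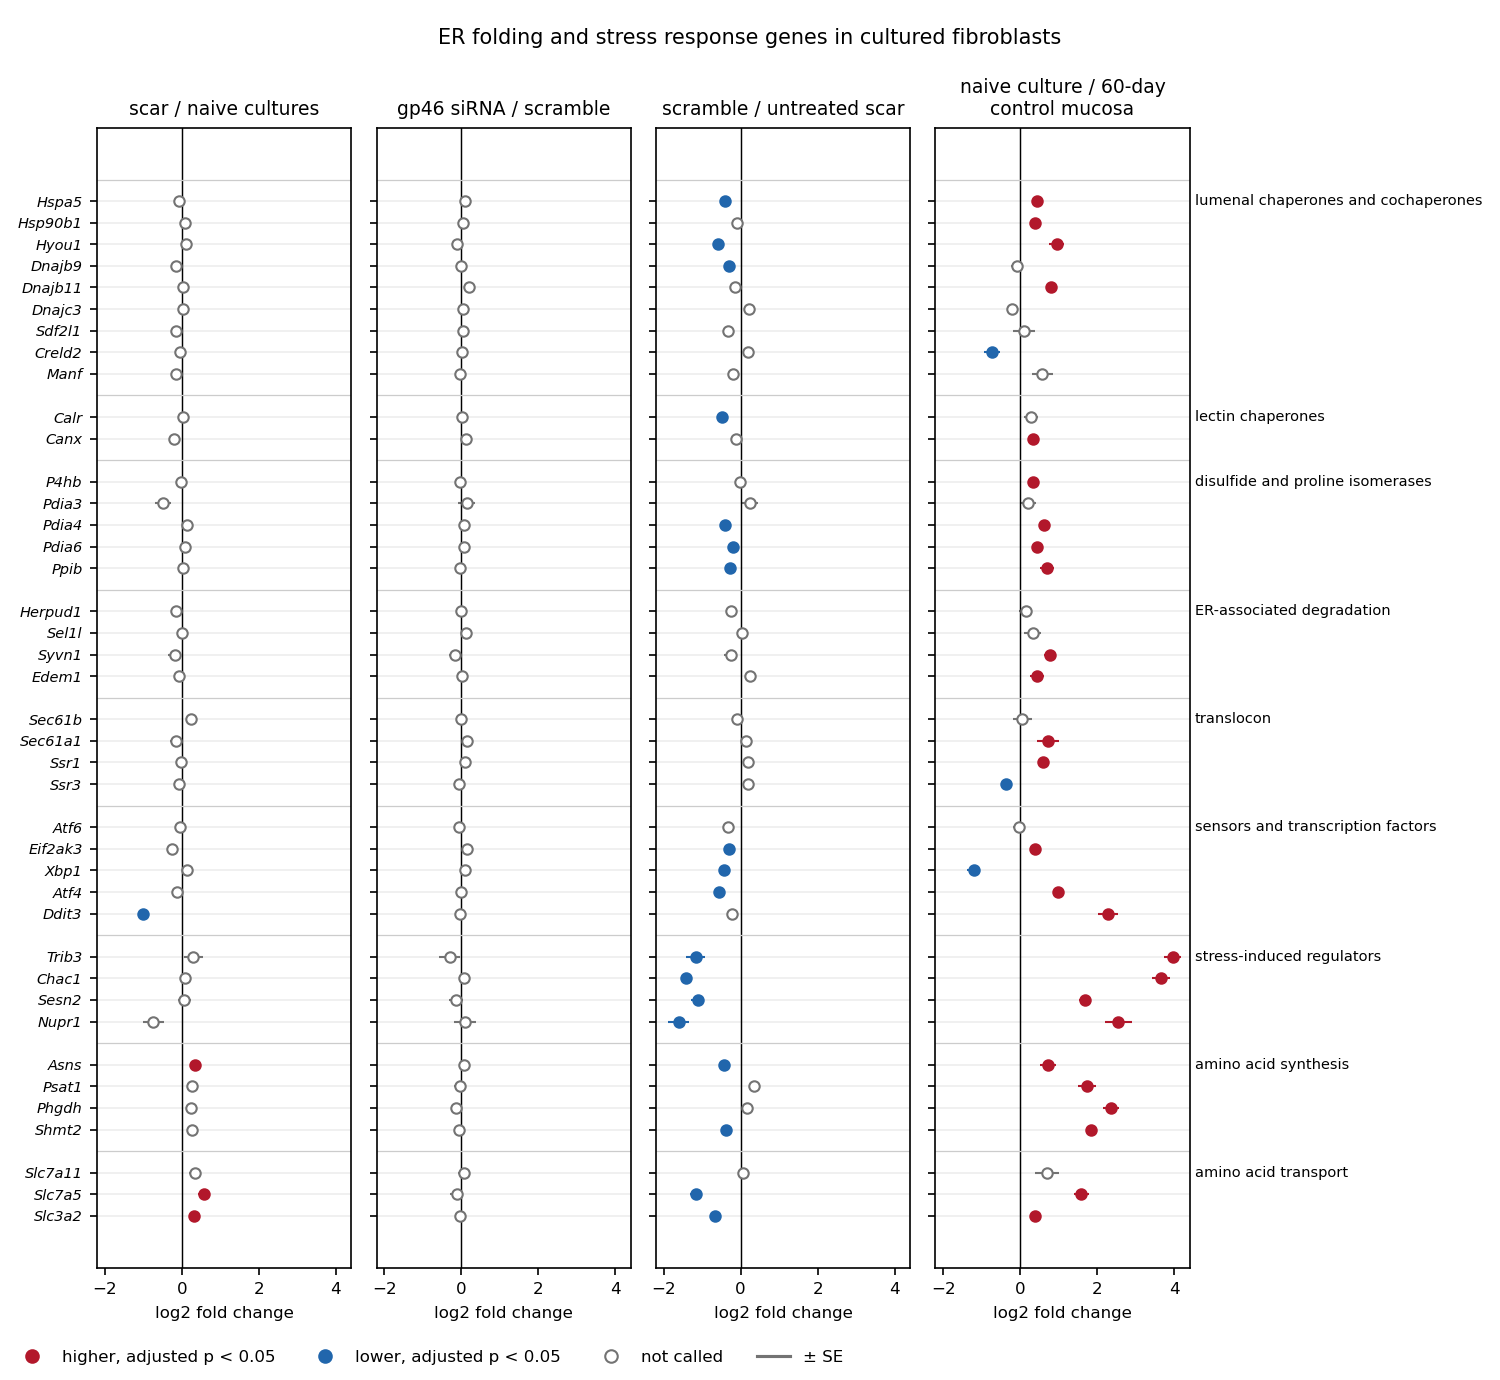
Log2 fold change ± SE of the 40 measured genes in scar against naive cultures, gp46 against scramble siRNA, scramble siRNA against untreated scar cultures, and naive cultures against 60-day control mucosa, grouped by role (right). Filled red and blue points were called higher and lower (limma adjusted p under 0.05), 4, 0, 18 and 29 genes in this order.

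Naive cultures and the control mucosa of rats of the same age, 180 days, were set side by side. The 4 stress-induced regulators were higher in culture by 1.69 to 3.97 log2 and the 4 enzymes of amino acid synthesis by 0.72 to 2.37, 4 of 9 lumenal chaperones and 4 of 5 isomerases were also higher, by at most 0.95, and Xbp1, Creld2 and Ssr3 were lower. In all, 26 of 40 members were higher and 3 lower (limma), against 36.1% and 26.1% of all genes (62.2% called), with a median of 0.51, against 0.12 over all genes. The groups stood apart for 30 higher and 4 lower members, against 46% and 33.2%. Isolated cells and whole mucosa also differ in their cell types, as the marker values above show, so growth in culture and cell makeup cannot be told apart.

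Trib3 was at 6.77 and 6.86 in control mucosa and at 11.10, 10.54 and 10.72 in naive cultures, 15.7-fold higher (log2 fold change 3.97, SE 0.22, limma adjusted p = 5e-16). Chac1 was at 8.65 and 8.22 in mucosa and at 12.23, 12.16 and 11.90 in culture, 12.7-fold higher (adjusted p = 5.95e-14). No arrays overlapped for either gene. Nupr1, Phgdh and Ddit3 were higher by 2.55, 2.37 and 2.28 log2, and Atf4 by 0.98 (adjusted p = 6.15e-10), from 12.53 and 12.58 to 13.50, 13.56 and 13.56. Eif2ak3 had 0.39 (adjusted p = 0.00335), Asns 0.72 (0.00361), Hspa5 0.44 (0.00112) and Hsp90b1 0.40 (0.00757), and Atf6, at -0.03, was not called. The other probe set of Atf6, of lower mean signal, gave 0.57 (limma adjusted p over all probe sets = 0.00312). Pdia3, the isomerase not called, had 0.21, and 1.51 at its other probe set, also of lower mean signal (1.19e-15). Xbp1 fell by 1.20 log2 (adjusted p = 6.63e-07), from 12.79 and 13 to 11.75, 11.71 and 11.64, Creld2 by 0.73 (0.00291) and Ssr3 by 0.37 (0.00958).

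Of the 98 other pathway genes 63 were higher and 5 lower in naive cultures, against 36.1% and 26.1% of all genes, with a median of 0.65. All 12 aminoacyl-tRNA synthetases were higher (median 0.98), with 11 of 14 other ATF4 targets and amino acid enzymes (median 2.06) and 11 of 12 collagen folding genes (median 2.07), Serpinh1 among them at 2.06. In the same arrays 9 of 9 gland markers and 7 of 7 plasma cell markers were lower (medians -7.34 and -1.96). The mean log2 signal was also lower for stratified epithelium (5.7 in naive cultures against 12.98), skeletal muscle (6.64 against 12.1) and macrophages (5.87 against 10.82). It was lower too for endothelium (5.82 against 9.17), neutrophils (5.14 against 6.66) and cell division (6.29 against 7.96), and higher for fibroblasts (13.18 against 11.42). Their part in the values of the members was not tested. Without control replicate 1 the calls of Asns, Canx, Edem1, Hsp90b1, P4hb, Sec61a1 and Slc3a2 were lost (limma adjusted p from 0.0586 to 0.193), and without control replicate 2 those of Canx, Edem1, Sec61a1 and Ssr3 (0.0701 to 0.114). Canx and Sec61a1 lost theirs without naive replicate 1 (0.0536 to 0.0586), Canx and Edem1 without naive replicate 2 (0.0615 to 0.0873) and Canx, Edem1, P4hb and Sec61a1 without naive replicate 3 (0.0567 to 0.0908). Ssr3 rested on its probe set, with an adjusted p of up to 0.955 over the alternatives.

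Grouped by promoter element, the members behaved as follows. Of the 10 members with an ER stress element or ER stress element II, 3 fell and 0 rose at 3 days PI (Herpud1, Hyou1 and Xbp1, median of the 10 -0.24), against 12% lower and 14.6% higher among all genes. In scramble against untreated scar cultures 4 fell and 0 rose (Hyou1, Calr, Xbp1 and Hspa5, median -0.20), against 13.6% lower and 16.5% higher, and in naive cultures against mucosa 5 were higher and 2 lower (median 0.31), against 36.1% and 26.1%. Of the 4 members with a C/EBP-ATF element, Nupr1, Chac1 and Trib3 fell in scramble cultures, with a median of -1.29 over the 4, and the same 3 genes were higher in naive cultures than in mucosa (median 3.11). Herpud1, which holds both kinds of element, had -0.26 (limma adjusted p = 0.07) and 0.15 in these comparisons, was the 1 member called at 14 days PI, and had the smallest p at 60 days PI. At 3 days PI, Herpud1 alone of these 4 was called. Members without a match moved too. Sesn2 and Slc7a5 fell in scramble cultures, while Slc7a11, Psat1 and Phgdh were not called there. In naive cultures Ddit3, Phgdh, Shmt2 and Sesn2 were higher and Ssr3 was lower. These counts describe a few genes and no test was made of them, so members with an element are not shown to differ from those without.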

How the data were processed

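RNA from 23 pooled VF mucosa samples and 13 fibroblast cultures was hybridised by the authors to Affymetrix Rat Genome 230 2.0 arrays, 1 sample per array. The deposited values are log2 signals from RMA, per the labels and the study's methods, which corrects the background, quantile-normalizes the arrays and summarises the probes of each set. Sorted values differed between arrays by at most 0.03, so all 36 arrays were normalized together, which removes any overall shift between tissue and culture. Of 31099 probe sets, 57 controls were removed, and 20826 had a single gene symbol in the platform annotation, 436 several and 9780 none. A gene was represented by the probe set whose mean signal was the median of its probe sets, which gave 14217 genes, 4525 of them with several probe sets.

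Groups were taken from the labels. Mucosa and cultures were fitted apart with limma 3.58.1 in R 4.3.3, except for naive cultures against mucosa, with Benjamini-Hochberg adjustment over all genes and a threshold of 0.05. Groups do not overlap where every array of one lies beyond every array of the other. No filter on low signals was applied. Two-sided p-values measure only the spread between these arrays, and the number of arrays limits the precision. Figures and promoter searches used Python 3.11.15 with numpy 2.4.6, pandas 2.3.3 and matplotlib 3.10.9. The scripts were tested on simulated data.

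The members and the lists of other ER genes and cell type markers were chosen with earlier results of these data known. In each comparison the text names up to 5 called members of largest rise and 5 of largest fall, the sensors and factors, Hspa5, Hsp90b1, Asns and Trib3, the 3 members of smallest p where 0 were called, Serpinh1 in the cultures, and up to 3 called genes of each other list. Members named beyond this rule were chosen after their values were seen. Alternatives were other rules for probe sets, leaving out the 30% of genes of lowest mean, repeated quantile normalization, median centring, array weights, a mean-variance trend, other sets of arrays in the fit, a replicate block, pooled controls, leaving out 1 array or the 3 that deviated together, and an own lognormal-normal mixture model (posterior over 0.95). Same-numbered siRNA cultures deviated together (r of 0.43, 0.18 and 0.47 across genes), a pairing hinted at by the data and not stated in the labels. The values printed for gp46 against scramble siRNA come from the fit without this pairing. An alternative fit with the replicate number as a block also called 0 members.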

Additional observations from a re-analysis of the deposited data

Results flagged for a closer look

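In 20 of the 160 combinations of a member and a group of 4 or 5 arrays, the highest or lowest array stood apart from the others by Dixon's criterion at the 95% level, which chance flags in about 1 of 20 groups. Of these, 8 were in 3-day PI replicate 5 and 7 in 60-day PI replicate 4, both of them among the 3 arrays that deviated together.

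In 3-day PI replicate 5, the secreted ER protein Manf was at 10.96 log2 (other arrays 11.67 to 11.95), the proline isomerase Ppib at 12.54 (13.04 to 13.11), the translocon subunit Sec61b at 11.63 (12.29 to 12.50), Ddit3 at 7.23 (8.27 to 8.41) and Nupr1 at 9.43 (10.47 to 10.70). In the same array the disulfide isomerases P4hb, Pdia3 and Pdia4 were above the others, at 13.74 (13.29 to 13.37), 13.45 (12.99 to 13.10) and 11.85 (11.57 to 11.64).

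In 60-day PI replicate 4, Ppib was at 11.72 (12.47 to 12.72), Sec61b at 10.81 (11.88 to 12.13) and Ddit3 at 8.02 (8.82 to 9.01), below the other arrays. Canx at 12.25 (11.67 to 11.80), the degradation genes Sel1l at 9.99 (8.82 to 9.0) and Edem1 at 9.31 (8.55 to 8.65), and Slc7a11 at 8.59 (7.35 to 7.71) were above them. Ppib, Sec61b and Ddit3 were low in both of these arrays. What sets these arrays apart was not tested.

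In 14-day PI replicate 4, Sel1l was at 8.52 (8.94 to 9.10) and Chac1 at 8.91 (8.51 to 8.54). Among untreated scar cultures, Pdia3 was at 13.23 in replicate 4 (12.28 to 12.32), Pdia6 at 12.81 in replicate 1 (12.97 to 13) and Ssr3 at 12.35 in replicate 2 (12.04 to 12.09).

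The effect of injury differed between times for Edem1, by 0.79 log2 between 3 and 14 days, and for Shmt2, by 0.62 log2 between 3 and 14 days and 0.78 log2 between 3 and 60 days (limma, adjusted p = 0.0348, 0.00335 and 0.000585, from an interaction contrast).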

How the results depend on the processing

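Called members and Serpinh1 kept their direction in the alternatives run, while medians of the members near 0 did not: leaving out 1 array gave -0.01 to 0.03 for scar against naive cultures, -0.01 to 0.06 for gp46 siRNA, -0.08 to 0.03 for 3 against 14 days and -0.01 to 0.10 for 14 against 60 days, and array weights turned 0.05 to -0.05 for 3 against 60 days. Over 68 called member results and their alternatives, 1299 values in all with Serpinh1, 1131 kept their side of the threshold and 167 lost a call. Counts of called members moved as follows. Each alternative refits all genes, and the shares of all genes called under it are not given here. A moved count is therefore not shown to be particular to the members. At 3 days PI, 13 became 26 when arrays were weighted and 20 when controls of all ages were pooled. At 14 days PI, 1 became 2 with repeated quantile normalization, median centring, all 36 arrays in 1 fit or pooled controls, 5 with array weights, 3 with the arrays of the groups compared alone, the replicate block or the lognormal-normal model, and 0 without the 3 arrays that deviated together. At 60 days PI, 0 became 6 with pooled controls. For 3 against 14 days, 2 became 1 with the probe set of highest mean, repeated quantile normalization or median centring, 10 with array weights and 5 without the 3 arrays. For 3 against 60 days, 1 became 3 with the mean of probe sets or all 36 arrays, 12 with array weights and 11 without the 3 arrays. For scar against naive cultures, 4 became 1 with their own arrays alone or the lognormal-normal model, 2 with all 36 arrays and 0 with the replicate block. For scramble against untreated scar cultures, 18 became 8 with the replicate block. The causes were not tested. Leaving out 1 array at a time gave 5 to 14 members at 3 days, 0 to 1 at 14 days, 0 at 60 days, 1 to 3 and 1 to 4 for 3 against 14 and 60 days, 0 for 14 against 60 days, 1 to 5 for scar, 0 for gp46 siRNA, 15 to 22 for scramble and 22 to 28 for naive cultures, and medians of the members between -0.19 and -0.04 at 3 days, -0.29 and -0.22 for scramble and 0.48 and 0.56 for naive cultures. Same-numbered arrays did not all deviate together outside the siRNA groups (lowest r of -0.03, -0.13 and -0.10 at 3, 14 and 60 days, -0.13 for scramble and -0.04 for naive cultures, while for scar cultures r was 0.10, 0.12 and 0.14 with the first just under the limit of 0.1), and with the replicate block 11 members were called at 3 days, 2 and 1 for 3 against 14 and 60 days, where Shmt2 had an adjusted p of 0.0541 (limma) at 60 days, and 26 for naive cultures.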
